A study of Mus musculus with 18 samples.

Results

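The stem cell fraction of mouse mammary epithelium (MaSC) was compared with the colony forming fraction (CFC) of the same tissue, using 6 of the 9 RNA samples of a series on 3 sorted mammary populations. All RNA samples of these fractions were taken, MaSC1 to MaSC3 and CFC1 to CFC3, and each was hybridised to both Affymetrix chips of a pair, MOE430A (chip A) and MOE430B (chip B), so that 12 of the 18 arrays of the series were used. Per the labels, both fractions were taken from mammary tissue that had just been dissociated, and were purified by negative magnetic selection followed by flow sorting. CFC held 1 colony forming cell in every 10 sorted cells and gave RNA from 3000 to 4000 cells. MaSC held 1 stem cell in 50 to 100 cells and gave RNA from 2000 to 4000 cells. By these assays most sorted cells of either group were not counted as stem or colony forming cells. No strain, genotype, age, pregnancy state or surface marker of the sort is given in the labels, and no treatment is named for either group. Biological triplicates are stated for CFC and not for MaSC, so the p-values measure the spread between these samples, which may in part be technical. The labels give the search for stem cell specific genes as the purpose of the comparison.

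The mammary epithelium has an inner luminal layer, which contains hormone-sensing cells and the progenitors of milk-secreting cells, and an outer basal layer of contractile myoepithelial cells that rest on the basement membrane. Transplantation assays in the mouse place cells able to rebuild a mammary gland in the basal layer, while most cells that form colonies in culture are luminal progenitors. Basal cells are known by keratin 5, keratin 14, p63 and smooth muscle actin, and luminal cells by keratin 8, keratin 18 and, in the progenitors, by early production of milk proteins.

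Values are MAS5 signals as deposited, whose trimmed mean was 1500 on every array. Signals reached 300 for 70.0% to 75.6% of probe sets per array on chip A, and for 77.3% to 80.4% per array on chip B. MaSC1 stood apart on both chips. On chip A its log2 values correlated at 0.587 and 0.583 with MaSC2 and MaSC3, which correlated at 0.778 with each other, and the CFC samples correlated at 0.688 to 0.751 among themselves. CFC and the other two MaSC samples correlated at 0.641 to 0.747, a range that overlaps the one within CFC. On chip B all these correlations were lower, at 0.438 to 0.500 within CFC, 0.541 for MaSC2 with MaSC3, and 0.395 and 0.394 for MaSC1 with these. The chip A arrays of CFC1 to CFC3, MaSC1 and MaSC2 were scanned on 1 day and that of MaSC3 on another, so values without MaSC3 are within-day values there. The fluidics station also differed on chip A: MaSC1 and MaSC2 were processed on one station, and MaSC3 and all CFC samples on another. Without MaSC3 the groups and the stations thus coincide there, and their effects cannot be told apart. On chip B, MaSC1 was scanned on the day of the CFC samples, and MaSC2 and MaSC3 each on a day of its own. There MaSC2 shared the station of the CFC samples, MaSC1 was on another, and no station is given for MaSC3. Counts are given below with and without MaSC1 and MaSC3.

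A small share of genes separated the fractions at the threshold used. On chip A, 77 of 10719 genes were higher in MaSC (0.718%) and 48 were lower (0.448%), at an adjusted p under 0.05 in limma over all probe sets of the chip. On chip B, 12 of 8842 genes were higher (0.136%) and 4 were lower (0.0452%). These were 138 different genes, of which 3 were called on both chips, namely Adm and Palld among the higher and Tmprss2 among the lower genes. The median log2 fold change over all genes was -0.04 on chip A and -0.02 on chip B, and the called genes differed by at least 1.52 on the log2 scale on chip A and 2.51 on chip B. The median standard error of a log2 fold change was 0.70 on chip A and 0.76 on chip B, which limits what 3 arrays a group can resolve. Of 228 chip A genes with a log2 fold change of 2 or more in size, 97 were called, and of 125 such genes on chip B, 16. Without MaSC1, the chip A counts were 135 higher and 75 lower and the chip B counts 21 and 5. Without MaSC3 they were 37 and 60 on chip A, and 5 and 4 on chip B. With the fluidics station as a block the chip A counts were 29 and 11. With scan day as a block on chip B, where MaSC1 alone shares a day with CFC, they were 1 and 15. The balance of higher and lower genes thus depended on the samples, blocks and threshold. On chip A, 444 higher and 493 lower genes had an unadjusted p under 0.05. On chip B these numbers were 259 and 223 of 8842 genes. The totals and shares over all genes given here are the background for the list counts below. Groups did not overlap for 679 higher and 855 lower of the 10719 genes of chip A. On chip B they did not for 470 and 470 of 8842. Most of these genes were not called, since calls numbered 125 on chip A and 16 on chip B. Absence of overlap was therefore common, and it is given below as a description only. Of the 84 calls of named genes, 47 were lost in at least 1 of the 6 fits that left out a sample. The counts rested on a variance model in which the spread follows the mean signal: without that trend 14 higher genes and 1 lower gene were called on chip A and none on chip B, where 242 higher and 226 lower genes had an unadjusted p under 0.05.

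**Figure D1:**
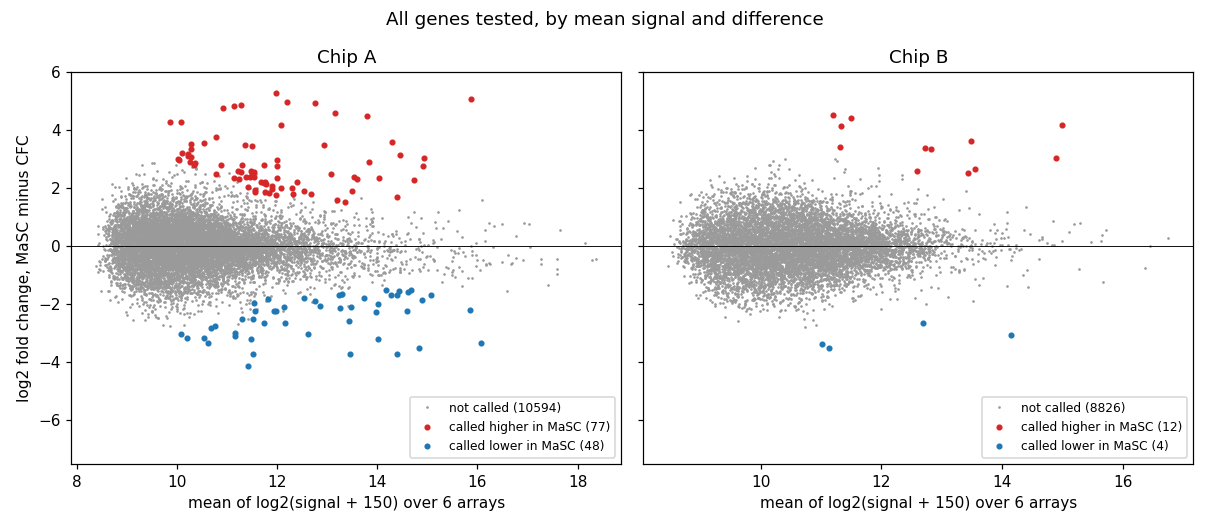
Every gene tested, 1 panel per chip, with the mean of log2(signal + 150) over the 6 arrays on the horizontal axis and the log2 fold change (MaSC minus CFC) on the vertical axis. Called genes are coloured; on chip A 77 lie above and 48 below the line at 0, and on chip B 12 above and 4 below.

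**Figure D2:**
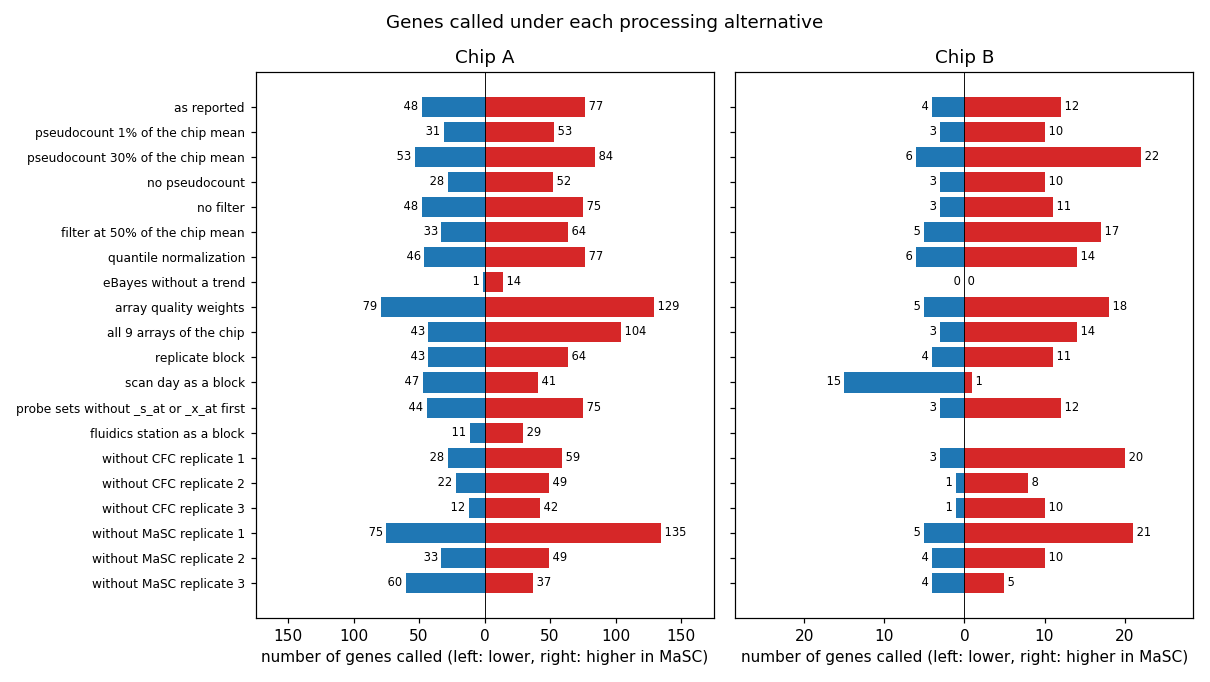
Number of genes called higher (right, red) and lower (left, blue) in MaSC on each chip, as reported and under each processing alternative; the fluidics station could be fitted on chip A only. Chip A calls ranged from 14 to 135 higher and from 1 to 79 lower.

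The basal keratin genes separated the fractions. Krt5 and Krt14, which encode the partner keratins of basal epithelial filaments, were followed in the same way by Krt17, a keratin of basal cells and skin appendages. Krt5 gave signals of 1280, 181 and 1135 in CFC1 to CFC3 and of 11421, 30165 and 50567 in MaSC1 to MaSC3. Krt14 gave 1176, 313 and 3131 in CFC and 41945, 39016 and 33548 in MaSC. Krt17 gave 309, 662 and 110 in CFC and 11558, 13146 and 15242 in MaSC. For all 3 genes every MaSC sample was above every CFC sample, and MaSC1 was the lowest MaSC sample for Krt5 and Krt17 but the highest for Krt14. The log2 fold changes were 4.95 ± 0.55 (SE), 4.92 ± 0.49 and 4.86 ± 0.51, with adjusted p of 7.24e-06, 3.73e-06 and 4.79e-06. These 3 were the called members among 6 basal keratin genes tested on chip A, and all 3 were also called without MaSC1, without MaSC3 and without the variance trend. Krt15 (log2 fold change 0.45), Krt16 (0.11) and Krt6a (-0.14) were not called, their groups overlapped, and the sign of each depended on the samples used.

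Trp63, which encodes p63, the transcription factor required to form and keep stratified and glandular basal cells, gave 197, 1209 and 82 in CFC and 5510, 4803 and 9595 in MaSC. The groups did not overlap, and the log2 fold change was 3.76 ± 0.64 (adjusted p = 0.0021). It was 13.6-fold higher on the log2(signal + 150) scale. The added 150 shrinks differences of low signals, such as those of CFC1 and CFC3. The chip B probe set of Trp63 was not called, at 1.64 (adjusted p = 0.977), and a second one on chip A gave -0.92.

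**Figure D3:**
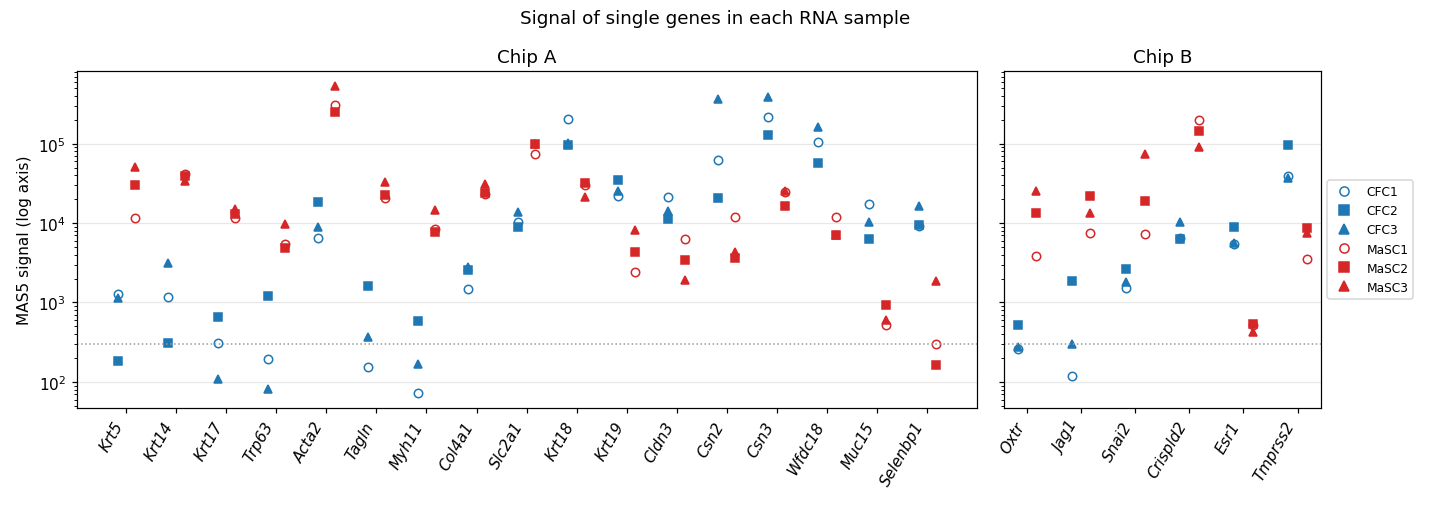
MAS5 signal (log axis) of 17 chip A genes and 6 chip B genes in each RNA sample, CFC in blue and MaSC in red, with open circles for the first sample of each group; the dotted line is the signal of 300 used in the filter. From Krt5 to Slc2a1 and from Oxtr to Crispld2 all MaSC samples lie above all CFC samples, and for the other genes all lie below.

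Smooth muscle contractile genes, which give myoepithelial cells the ability to squeeze milk from the alveoli, made the largest group of higher genes. Of 23 members tested on chip A, 11 rose and none fell, beside 0.718% higher and 0.448% lower over all genes. The median log2 fold change was 1.60 against -0.04 over all genes. Without MaSC1 the count was 12 with a median of 1.96, and without MaSC3 it was 4 with a median of 1.60. Acta2, the gene of smooth muscle actin, gave 6515, 18331 and 8849 in CFC and 307349, 251677 and 529430 in MaSC (log2 fold change 5.06 ± 0.41, adjusted p = 2.24e-07). Tagln, which encodes the actin-bundling protein transgelin, gave 153, 1607 and 368 in CFC and 20404, 22361 and 33154 in MaSC (5.26 ± 0.52, adjusted p = 3.64e-06). For both genes the lowest MaSC sample was far above the highest CFC sample. Myh11, the heavy chain of smooth muscle myosin, gave 73, 592 and 168 in CFC and 8482, 7656 and 14609 in MaSC (4.74 ± 0.57). Tpm2, a tropomyosin that lies along the actin filament, gave 2630, 1627 and 1182 in CFC and 19293, 42317 and 108186 in MaSC (4.58 ± 0.47). Cnn1, which encodes calponin, an actin-binding regulator of contraction, gave 93, 207 and 408 in CFC and 3482, 2883 and 6636 in MaSC (3.53 ± 0.67, adjusted p = 0.00598). None of these overlapped, although Cnn1 lost its call without MaSC3 (adjusted p = 0.101). Myl9, the regulatory light chain whose phosphorylation starts contraction, was below 300 in all CFC samples (281, 265 and 115) and gave 4318, 1187 and 6001 in MaSC. Its log2 fold change of 3.20 ± 0.73 (adjusted p = 0.03) was lost in 5 of the 6 fits that left out 1 sample. The other 5 called members, Actg2, Smtn, Mylk, Csrp1 and Cald1, named here outside the naming rule, had log2 fold changes of 1.60 to 2.91. Tpm1 (1.99, adjusted p = 0.0644) and Flna (1.38, adjusted p = 0.194), whose groups did not overlap, were not called.

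Pericytes and the muscle cells of vessels also make these contractile proteins. Of their own markers, 0 of 6 tested on chip A were called (limma), with 0 higher and 1 lower at an unadjusted p under 0.05, and their summed signal was 6358 to 9582 in CFC and 4203 to 8229 in MaSC. The log2 fold changes of 3 of the 6 were positive, with Kcnj8 highest at 0.79, and the median was 0.14. Rgs5, a defining pericyte gene, gave 1422, 1803 and 1974 in CFC and 1625, 150 and 437 in MaSC (-1.46), and its other probe sets gave -0.68 to 0.05, none called. In bulk RNA such as this, fewer cells of a type and less RNA per cell cannot be told apart.

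The receptor that starts contraction was measured on chip B. Oxtr, the receptor for oxytocin, which triggers milk ejection, gave 262, 519 and 278 in CFC and 3809, 13421 and 25711 in MaSC. The groups did not overlap, and the log2 fold change of 4.51 ± 0.67 (adjusted p = 0.000265) was the largest on that chip. It was 3.90 without MaSC3, where the call was lost (adjusted p = 0.139), and the chip A probe set of Oxtr gave 1.01 without a call. Ednrb, an endothelin receptor, gave 1630, 1233 and 389 in CFC and 3965, 8720 and 7078 in MaSC and was not called (2.55 ± 0.61, adjusted p = 0.112). Oxtr was the only called gene among the contraction receptors and regulators of serum response, of which 12 were tested on chip A and 6 on chip B (0 and 3 higher at an unadjusted p under 0.05).

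The promoters of the contractile list were searched for the CArG box, the site bound by serum response factor in many muscle genes, on both strands of the 250 bases before each start in RefSeq's table for GRCm38.p6. The table held 24 promoters for 20 of the 23 genes, and 3 of these promoters, those of Fhl1, Myl9 and Vcl, had a match, against 482 of all 32851 promoters (1.47%). Of these 3 genes Myl9 alone was called. Its promoter, at chr2:156775214-156775463 on the + strand, is shown with the match in capitals, which lies 161 to 152 bases before the start.
Myl9: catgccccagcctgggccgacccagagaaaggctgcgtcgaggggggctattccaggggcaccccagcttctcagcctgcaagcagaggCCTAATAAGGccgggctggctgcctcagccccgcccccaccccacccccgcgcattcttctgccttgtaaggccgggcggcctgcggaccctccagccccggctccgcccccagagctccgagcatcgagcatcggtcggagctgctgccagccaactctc
A match is a run of letters and not a measured binding site, and the window leaves out introns and more distant sequence.

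Genes that anchor basal cells to their membrane were higher in part. Of 15 hemidesmosome, desmosome and basal adhesion genes on chip A, 3 rose and none fell, with a median of 0.79. Over all chip A genes 0.718% were called higher, and the median was -0.04. Col17a1, a transmembrane collagen of the hemidesmosome, gave 143, 857 and 130 in CFC and 3263, 3643 and 9911 in MaSC (log2 fold change 3.54 ± 0.67, adjusted p = 0.00589). Lama3, a chain of laminin 332, the hemidesmosome's ligand, gave 757, 984 and 2026 in CFC and 4115, 7814 and 9110 in MaSC (2.38 ± 0.49, adjusted p = 0.013). Itga6, the integrin alpha chain that binds this laminin and is widely used to sort basal cells, gave 7534, 6114 and 4766 in CFC and 18186, 15746 and 18972 in MaSC (1.52 ± 0.34, adjusted p = 0.0288). The groups of all 3 were apart, yet the list had no call without MaSC3, where the adjusted p of Itga6 was 0.102, and 5 calls without MaSC1. Lamb3 (1.69), Cd151 (1.18) and the representative probe set of Dst (1.18) were not called, although another Dst probe set was (3.88).

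Collagen IV and its partners were among the steadiest differences. Of 22 basement membrane and fibrillar matrix genes tested on chip A, 4 rose and none fell, with a median of 1.09. Over all genes of that chip, 0.718% were called higher and the median was -0.04. Of the list, 4 were called without MaSC3 and 5 without MaSC1. Col4a1, a chain of the network-forming collagen of basement membranes, gave 1494, 2593 and 2780 in CFC and 23558, 24160 and 31385 in MaSC (log2 fold change 3.48 ± 0.37, adjusted p = 4.79e-06). Col4a2, its partner chain, gave 755, 940 and 345 in CFC and 8850, 7569 and 9457 in MaSC (3.47 ± 0.48, adjusted p = 0.00017). Both varied little among the MaSC samples, MaSC1 included. Sparc, a collagen-binding matricellular protein needed to secrete collagen IV, gave 833, 412 and 1748 in CFC and 18845, 15191 and 20602 in MaSC (4.16 ± 0.45). Serpinh1, the collagen chaperone of the endoplasmic reticulum, gave 6657, 6594 and 3119 in CFC and 31609, 70890 and 27976 in MaSC (2.91 ± 0.40). Agrn (1.94, adjusted p = 0.143) and Lama5 (1.53) were not called. Of the fibrillar collagen genes typical of fibroblasts, Col3a1 gave 194, 2033 and 602 in CFC and 6755, 1011 and 1680 in MaSC, and Col1a2 1724, 1695 and 900 against 5727, 2030 and 1921. Neither was called, and MaSC1 was the high sample for both. The summed signal of 12 fibroblast markers was 19112 to 39192 in CFC and 25783 to 48946 in MaSC, and its part in the matrix genes was not tested.

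Of the matricellular and secreted basal genes, 3 of 16 rose on chip A and 1 of 5 on chip B. The shares called higher over all genes were 0.718% and 0.136%. Htra1, a secreted serine protease that acts on matrix and growth factors, gave 431, 201 and 218 in CFC and 8628, 12597 and 15559 in MaSC (log2 fold change 4.84 ± 0.50). Postn, which encodes the matrix protein periostin, gave 3204, 4975 and 1430 in CFC and 35788, 66724 and 123509 in MaSC (4.47 ± 0.44). Ccn2, the connective tissue growth factor, gave 9172, 19150 and 9092 in CFC and 62192, 36607 and 231003 in MaSC (2.77 ± 0.49, adjusted p = 0.00278). All MaSC samples were above all CFC samples for these genes, and the Ccn2 signal of MaSC3 was far above that of the other two. On chip B, Crispld2, a secreted cysteine-rich protein, gave 6455, 6216 and 10459 in CFC and 200160, 144752 and 90906 in MaSC (4.18 ± 0.39, adjusted p = 5.25e-08). It was the most certain call of that chip and held in each fit that left out 1 sample. The medians of the list were 0.32 on chip A and -0.50 on chip B, where the other 4 members were negative and 2 of them had an unadjusted p under 0.05. One of these was Ccn1, a matricellular relative of Ccn2 (-1.40, adjusted p = 0.547). Timp3 (2.06, adjusted p = 0.112) and Ltbp2 (2.47, adjusted p = 0.124) were not called.

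Binding proteins of insulin-like growth factors were called in part. Igfbp3 was below 300 in every CFC sample (73, 67 and 39) and gave 3236, 7808 and 2406 in MaSC (log2 fold change 4.29 ± 0.74, adjusted p = 0.00245). Igfbp4, another binding protein of this family, gave 1691, 1430 and 5364 in CFC and 8486, 11910 and 14878 in MaSC (2.20 ± 0.45, adjusted p = 0.0131). These were the 2 calls among 12 genes of the axis on chip A, whose median was 0.93. Across all genes there, 0.718% were called higher and the median was -0.04. Igfbp2 (1.32), Igfbp7 (1.05) and Irs2 (1.81), an adaptor of the insulin receptor, had groups that did not overlap but were not called. Slc2a3, Apoe and Lgals1 lay outside the lists. Slc2a3, a glucose transporter, was at 64, 128 and 108 in CFC and at 4394, 4576 and 4858 in MaSC (4.26 ± 0.67, adjusted p = 0.000932). Apoe, a lipid carrier, was at 108, 261 and 400 in CFC and at 5200, 1529 and 6922 in MaSC (3.36 ± 0.70, adjusted p = 0.0147). Lgals1, which encodes the glycan-binding protein galectin 1, was at 181, 1075 and 1453 in CFC and at 7273, 5981 and 18962 in MaSC (3.46 ± 0.57, adjusted p = 0.00154).

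Transcription factors and ligands linked to stem cells were examined next. Snai2, which encodes Slug, a repressor of epithelial junction genes, gave 1530, 2659 and 1786 in CFC and 7358, 18795 and 73672 in MaSC on chip B (log2 fold change 3.39 ± 0.54, adjusted p = 0.000853). MaSC3 was far above MaSC1, and without MaSC3 the value was 2.51 and the call was lost (adjusted p = 0.107). On chip A the probe set of Snai2 gave 81, 150 and 1051 against 2310, 1505 and 3394 and was not called (2.48, adjusted p = 0.169). Sox10 (0.98) and Egr2 (1.54), further factors on the basal list, were above CFC in every MaSC sample in their representative chip A probe sets and not called. Their other chip A probe sets had overlapping groups and no call, at -0.26 and 0.01 for Sox10 and 1.41 for Egr2. Snai2 and Trp63 were thus the called members of that list, 1 of 13 tested on chip A and 1 of 9 on chip B. Its medians were 0.37 and 0.17.

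Of the markers proposed for mammary stem cells, 17 were tested on chip A and 9 on chip B. Itga6 and Dll1 rose on chip A, Snai2 rose on chip B and Cd24a fell on chip A. Itga6 and Cd24a are used to sort mammary cells, and whether this sort used them is not given. The medians of the list were 0.07 on chip A and 0.65 on chip B, beside -0.04 and -0.02 over all genes. Dll1, a Notch ligand, gave 1184, 1347 and 1890 in CFC and 5177, 6430 and 5363 in MaSC (log2 fold change 1.86 ± 0.44, adjusted p = 0.0376). Its groups were well apart, but the call was lost in every fit that left out 1 sample other than MaSC1. Prom1 (-1.72, adjusted p = 0.522), a pentaspan membrane glycoprotein of luminal cells, and Bmi1 (-1.55, adjusted p = 0.51), a Polycomb protein required for self-renewal in several tissues, had overlapping groups and were not called.

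Jag1, the second Notch ligand among the calls, gave 118, 1888 and 297 in CFC and 7456, 22072 and 13456 in MaSC on chip B (log2 fold change 4.40 ± 0.65, adjusted p = 0.000265). The groups did not overlap, and the chip A probe set of Jag1 gave -0.90 without a call. Rbpj, the DNA-binding partner of the Notch receptors, gave 3146, 3113 and 190 in CFC and 7828, 10975 and 11186 in MaSC and was not called (2.70, adjusted p = 0.0801). Notch3, a receptor, was lower in every MaSC sample without a call (-1.50, adjusted p = 0.311). Of Notch genes, 1 of 17 on chip A and 1 of 4 on chip B were called, both ligands and both higher. Over all genes, 0.718% were called higher on chip A and 0.136% on chip B. The medians of the Notch list were 0.14 and 1.52, beside -0.04 and -0.02 over all genes.

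Of 25 Wnt pathway genes tested on chip A, 1 was called, and the median of the list was 0.28. Fzd7, a Wnt receptor, gave 1253, 1586 and 1580 in CFC and 4874, 7082 and 11469 in MaSC (log2 fold change 2.22 ± 0.44, adjusted p = 0.0105). The call was lost without MaSC3 (1.90, adjusted p = 0.115). The ligand genes Wnt11 (1.32) and Wnt10a (1.33) were not called. In the transforming growth factor beta and bone morphogenetic protein pathway, 1 of 23 genes rose on chip A and 1 of 11 on chip B. The medians of that list were -0.03 and 0.38, beside -0.04 and -0.02 over all genes. Tgfbr3, the co-receptor betaglycan, gave 5512, 3185 and 5249 in CFC and 16067, 29596 and 38512 in MaSC on chip B (2.51 ± 0.42, adjusted p = 0.00131), while its chip A probe set gave -1.11 without a call. Smad1, which carries bone morphogenetic protein signals to the nucleus, gave 2212, 1218 and 1702 in CFC and 6429, 7470 and 5417 in MaSC on chip A (1.85 ± 0.43, adjusted p = 0.033). Its chip B probe set had a log2 fold change of 1.97 and just missed the threshold (adjusted p = 0.0665). Fst, the activin antagonist follistatin, likewise missed it on both chips, at 2.66 (adjusted p = 0.0532) and 2.45 (adjusted p = 0.0665), with no overlap between the groups on either.

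Several of the top genes of chip B were in no list. Sema6d, a transmembrane semaphorin, gave 1550, 370 and 392 in CFC and 4650, 10318 and 11035 in MaSC (log2 fold change 3.40 ± 0.63, adjusted p = 0.00589). Tenm2, a teneurin adhesion protein, gave 183, 976 and 469 in CFC and 9214, 7185 and 17897 in MaSC (4.13 ± 0.62, adjusted p = 0.000304). Cotl1, an F-actin binding protein, gave 5411, 3070 and 1784 in CFC and 23021, 52412 and 53480 in MaSC (3.63 ± 0.44). No group overlapped here. Palld, which encodes the actin scaffold palladin, rose by 2.67 on the log2 scale on chip B, and its chip A probe set was called as well (1.80, adjusted p = 0.0348). Lhfp, a tetraspan membrane protein, was at 3401, 2112 and 1281 in CFC and at 17820, 23623 and 29152 in MaSC (3.36 ± 0.44). Unc5b, a netrin receptor, was the 1 called gene among 18 axon guidance genes on chip A (0 of 11 on chip B, limma, with 2 higher and 1 lower at an unadjusted p under 0.05), at 94, 255 and 356 in CFC and at 3330, 2844 and 2274 in MaSC (2.99 ± 0.70, adjusted p = 0.033). Its call was lost in each of the 6 fits that left out 1 sample, and the axon guidance list had a chip A median of 0.12.

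Luminal genes ran the other way. Over all chip A genes, 0.448% were called lower and the median log2 fold change was -0.04. Of 13 luminal keratin and surface genes tested on chip A, 5 fell, none rose, and 12 had a negative log2 fold change, with a median of -1.68. The count was 5 without MaSC1 and 6 without MaSC3, and 1 with the fluidics station as a block, where the median was -1.09. Krt18, the type I keratin of simple epithelium, gave 203907, 95288 and 102470 in CFC and 30351, 31625 and 21121 in MaSC (-2.20 ± 0.38, adjusted p = 0.00247). Krt19, a keratin of luminal ducts, gave 21822, 35211 and 25201 in CFC and 2400, 4334 and 8098 in MaSC (-2.57 ± 0.40, adjusted p = 0.000783). Every MaSC sample was below every CFC sample for both, with a clear signal left in MaSC. Krt8, the partner of keratin 18, gave 240112, 145205 and 141188 in CFC and 48622, 70023 and 55581 in MaSC and narrowly missed the threshold in its brightest probe set (-1.56, adjusted p = 0.0506). The other Krt8 probe sets were called, at -1.68 and -1.81. Cd24a, the surface glycoprotein that is used to sort luminal cells, gave 25521, 71287 and 31490 in CFC and 9184, 11985 and 15403 in MaSC (-1.68 ± 0.38, adjusted p = 0.03). Cd14, a co-receptor for bacterial lipopolysaccharide found on luminal progenitors, fell by 2.09 on the log2 scale (adjusted p = 0.03). Ly6d fell by 3.09 (adjusted p = 0.0349) although MaSC3, at 3428, was above CFC1, at 2965. Krt7 (-2.07, adjusted p = 0.127), Epcam (-1.25, adjusted p = 0.127) and Kit (-1.57, adjusted p = 0.415), a receptor kinase of luminal progenitors, were not called. In these chip A probe sets every MaSC sample was below every CFC sample. The chip B probe set of Epcam gave -0.2 and another chip A one of Kit -0.3, with overlapping groups and no call.

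The genes of luminal junctions followed the keratins. Of 13 tight junction and apical polarity genes on chip A, 2 fell and 12 were negative, with a median of -1.61. Over all genes of the chip, 0.448% were called lower and the median was -0.04. Cldn3, a claudin of the tight junction strand, gave 21122, 11251 and 14227 in CFC and 6286, 3454 and 1936 in MaSC (log2 fold change -2.06 ± 0.42, adjusted p = 0.0119). Cldn4, a claudin of tighter epithelia, gave 9968, 4310 and 5895 in CFC and 1197, 1762 and 890 in MaSC (-2.22 ± 0.47, adjusted p = 0.0172). The groups of both were apart, and both calls were lost without MaSC3, without CFC1 and without CFC3. Cldn7 (-1.94, adjusted p = 0.056) and Pard6b (-2.47, adjusted p = 0.159) were not called. Erbb3, a partner of the receptor Erbb2, gave 9985, 8872 and 6617 in CFC and 167, 2606 and 2707 in MaSC (-2.65 ± 0.61, adjusted p = 0.0311), and MaSC1 was its low sample. It was the 1 called gene among 10 epidermal growth factor ligands and receptors on chip A, whose median was -0.13.

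Of 8 membrane serine protease and inhibitor genes on chip A, 2 fell, and Tmprss2, the 1 member tested on chip B, fell there too. The shares called lower over all genes were 0.448% on chip A and 0.0452% on chip B. Tmprss2, a protease of the apical membrane, gave 38882, 96014 and 37214 in CFC and 3515, 8628 and 7468 in MaSC on chip B (log2 fold change -3.05 ± 0.42, adjusted p = 9.08e-05). On chip A it gave 3955, 4509 and 4687 in CFC and 215, 282 and 1768 in MaSC (-2.75 ± 0.63, adjusted p = 0.0292). St14, which encodes matriptase, an activator of epithelial sodium channels and growth factors, fell by 2.22 on the log2 scale (adjusted p = 0.03). On chip A 7 of the 8 genes were negative. Prss8, the protease prostasin, was lower in every MaSC sample and not called (-2.72, adjusted p = 0.109). One further probe set of Tmprss2 on each chip went the other way, at 0.65 on chip A and 0.38 on chip B, neither called.

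Milk protein genes gave the largest median of any list, -3.27 over 8 casein and whey protein genes on chip A. Of these 5 fell, none rose, and all 8 were negative, beside 0.448% of all chip A genes called lower. The count was also 5 without MaSC1 and without MaSC3. Csn2, the gene of beta casein, gave 61618, 20580 and 361992 in CFC and 12038, 3646 and 4320 in MaSC (log2 fold change -3.71 ± 0.64, adjusted p = 0.00241). Csn3, kappa casein, gave 215530, 127102 and 385537 in CFC and 24813, 16397 and 25274 in MaSC (-3.33 ± 0.41, adjusted p = 3.55e-05). Csn1s1, an alpha casein, gave 51202, 16002 and 150801 in CFC and 7691, 4956 and 3828 in MaSC (-3.21 ± 0.52, adjusted p = 0.00128). The groups were apart for each, and within CFC the samples spread widely, with CFC3 highest and CFC2 lowest every time. Wfdc18, a protease inhibitor of the whey acidic protein family, gave 104029, 56976 and 161762 in CFC and 11958, 7069 and 7116 in MaSC (-3.52 ± 0.39, adjusted p = 7.21e-06). Without CFC3 these 4 genes kept their call, at log2 fold changes of -2.60 for Csn2, -2.92 for Csn3, -2.41 for Csn1s1 and -3.17 for Wfdc18. Csn1s2a gave 14500, 16670 and 274311 in CFC and 7118, 1075 and 3219 in MaSC (-3.71 ± 0.74, adjusted p = 0.00984), and without CFC3 it was -2.34 and not called (adjusted p = 0.0909). Wap (-2.02, adjusted p = 0.162) and Lalba (-1.65, adjusted p = 0.509), the whey protein genes of late pregnancy and lactation, were lower in every MaSC sample without a call.

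Prolactin acts on casein genes through Stat5, which binds a pair of half-sites spelled TTCNNNGAA. These letters, searched on both strands of the 250 bases before each start, occurred in 2306 of 32851 RefSeq promoters of GRCm38.p6 (7.02%). The table held promoters for 7 of the 9 casein and whey genes, and 3 of the 7 had a match, those of Csn1s1, Csn2 and Glycam1. The promoters of the 2 called genes among them, Csn1s1 at chr5:87665958-87666207 on the + strand and Csn2 at chr5:87699426-87699675 on the - strand, are shown with the match in capitals. It lies 100 to 92 bases before the start of Csn1s1 and 93 to 85 bases before that of Csn2.
Csn1s1: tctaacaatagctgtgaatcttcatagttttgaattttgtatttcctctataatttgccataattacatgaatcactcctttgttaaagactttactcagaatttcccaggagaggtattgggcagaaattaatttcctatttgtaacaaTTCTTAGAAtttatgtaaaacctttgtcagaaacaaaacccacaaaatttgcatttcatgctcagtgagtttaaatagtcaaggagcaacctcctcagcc
Csn2: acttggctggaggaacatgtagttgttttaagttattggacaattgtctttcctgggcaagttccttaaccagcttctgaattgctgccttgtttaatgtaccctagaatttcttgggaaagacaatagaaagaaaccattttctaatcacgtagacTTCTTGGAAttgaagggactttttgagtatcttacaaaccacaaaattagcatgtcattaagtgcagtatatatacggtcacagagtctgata
The match describes letters in the window and not binding. Of 12 prolactin, Jak and Stat genes tested on chip A none was called (limma), with 2 higher and 0 lower at an unadjusted p under 0.05, and the median was -0.10. Socs2 (1.09) and Socs3 (1.18), inhibitors that Stat signalling induces, had the smallest p.

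Genes of the milk fat globule and of secretion fell with the caseins. Of 14 tested on chip A, 5 fell and none rose, with a median of -1.64, and the count was 6 without MaSC1 and 5 without MaSC3. The chip A share called lower over all genes was 0.448%, and their median was -0.04. Muc15, a membrane mucin found on the milk fat globule, gave 17357, 6343 and 10422 in CFC and 520, 943 and 604 in MaSC (log2 fold change -3.70 ± 0.48, adjusted p = 7.32e-05). It was the single lower gene still called without the variance trend. Ceacam1, an adhesion protein of luminal surfaces, gave 28535, 12520 and 15966 in CFC and 3312, 1993 and 1296 in MaSC (-3.03 ± 0.42, adjusted p = 0.000166). Kcnn4, a calcium-activated potassium channel of secretory epithelium, gave 10199, 2231 and 4957 in CFC and 1514, 180 and 66 in MaSC (-3.35 ± 0.73, adjusted p = 0.0209). Ltf, which encodes the iron-binding milk protein lactoferrin, gave 7282, 10591 and 18562 in CFC and 2119, 1205 and 1830 in MaSC (-2.65 ± 0.43, adjusted p = 0.00125). Mfge8, a coat protein of the fat globule, fell least, at -1.52 ± 0.34 (adjusted p = 0.0285), and its call was lost in 5 of the 6 fits that left out a sample. The groups of these 5 genes did not overlap. Btn1a1 (-2.13, adjusted p = 0.073), which encodes butyrophilin, and the water channel gene Aqp5 (-2.29, adjusted p = 0.155) were not called. Another chip A probe set of Btn1a1 gave 0.06, with overlapping groups and no call.

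Hormone-sensing genes were mostly measured without a call. Esr1, the estrogen receptor alpha gene, fell on chip B, where it gave 5470, 8818 and 5656 in CFC and 524, 535 and 420 in MaSC (log2 fold change -3.37 ± 0.65, adjusted p = 0.0095). The MaSC samples were close to each other and all below CFC. The call was lost without any 1 of the CFC samples and kept without any 1 of the MaSC samples. Other Esr1 probe sets gave -1.89 on chip B and -0.26 on chip A, neither called. Pgr, the progesterone receptor gene, gave 6870, 50357 and 11644 in CFC and 3471, 3032 and 9439 in MaSC on chip B (-1.75, adjusted p = 0.542), with CFC2 the high sample. Another chip B probe set of Pgr gave -0.86, and the chip A one went the other way at 0.93, neither called. Tph1, the serotonin synthesis enzyme, gave 5561, 11240 and 4120 against 158, 1726 and 2491 on chip A (-2.50, adjusted p = 0.0575). Tnfsf11, the cytokine RANKL, was higher in every MaSC sample and not called (1.79, adjusted p = 0.415).

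The regulators of the luminal layer were less clear than its products. Of 18 luminal and alveolar transcription factor genes on chip A none fell, although 13 were negative and the median was -0.51. Elf5, the factor that drives alveolar differentiation, gave 2826, 2611 and 1554 in CFC and 423, 73 and 209 in MaSC, with no overlap and no call (log2 fold change -2.75, adjusted p = 0.0852). Ehf, a related epithelial factor, gave 3512, 1364 and 4346 against 239, 83 and 796 (-2.73, adjusted p = 0.0866). Gata3, the factor that maintains luminal identity, had overlapping groups (-1.83, adjusted p = 0.536). The 1 called member, Tfap2c, an AP-2 factor, rose and did not fall: it gave 3541, 2581 and 2774 in CFC and 10050, 8307 and 17593 in MaSC (1.90 ± 0.39, adjusted p = 0.0137). Its other 2 probe sets gave 0.90 and 2.34, neither called.

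Among 17 innate defence and acute phase genes on chip A, 4 fell and 1 rose, beside 0.448% and 0.718% of all genes. The lower ones were Wfdc18, Cd14 and Ltf, given above, and Hp, the haemoglobin-binding protein haptoglobin (log2 fold change -3.19, adjusted p = 0.0178), whose groups overlapped, with CFC1 at 2196 and MaSC3 at 2526. Slpi, a secreted inhibitor of leukocyte proteases, went against these: it gave 12996, 20604 and 6803 in CFC and 39566, 84539 and 65636 in MaSC (2.29 ± 0.40, adjusted p = 0.00269). Lbp (-1.71, adjusted p = 0.234) was not called. Of 15 chemokine genes, whose median was 0.2, Cxcl14, a chemokine of epithelia, rose by 2.35 (adjusted p = 0.03). That call was lost in 5 of the 6 fits that left out a sample. Cxcr4, the receptor for Cxcl12, gave 4050, 4094 and 4899 in CFC and 175, 219 and 896 in MaSC (-3.16 ± 0.62, adjusted p = 0.00903). Ackr3, a second receptor for that chemokine, ran the other way without a call, at 231, 294 and 457 in CFC and 2118, 2279 and 3598 in MaSC (2.55, adjusted p = 0.0775).

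Of 18 glycolysis and hypoxia genes on chip A, 4 rose, none fell and 16 were positive, with a median of 1.02. Over all genes 0.718% were called higher, and the median was -0.04. The count of the list was 7 without MaSC1, 2 without MaSC3 and 0 without the variance trend. Slc2a1, the basal glucose transporter, gave 10244, 8820 and 13692 in CFC and 73915, 98710 and 100349 in MaSC (log2 fold change 3.05 ± 0.34, adjusted p = 8.04e-06). It held in every fit that left out 1 sample, and its other chip A probe sets gave 2.93 and 2.68, both called. Egln3, an oxygen-sensing prolyl hydroxylase induced by low oxygen, gave 962, 593 and 3724 in CFC and 11314, 7474 and 16700 in MaSC (2.95 ± 0.52, adjusted p = 0.00274). Adm, the vasodilator peptide adrenomedullin, was called on both chips, and on chip B it gave 5165, 14137 and 15509 in CFC and 72585, 70607 and 130262 in MaSC (3.05 ± 0.42, adjusted p = 9.08e-05). Vegfa, the vascular growth factor, gave 736, 2325 and 1513 in CFC and 5700, 5612 and 5970 in MaSC (1.94 ± 0.47, adjusted p = 0.0436). Ero1a, an oxidase of the endoplasmic reticulum that low oxygen also induces, lay outside the list and gave 4946, 6494 and 5503 in CFC and 25083, 150711 and 89430 in MaSC (3.60 ± 0.46, adjusted p = 5.55e-05). None of these groups overlapped. The call of Vegfa, like those of Lama3, Smad1, Pmp22 and Smagp, was lost in 4 of the 6 fits that left out a sample. The glycolytic enzyme gene Pfkp was not called on chip A (1.87) or chip B (2.24), nor was Hif1a (1.26, adjusted p = 0.26), the oxygen-regulated transcription factor.

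Selenbp1, a selenium-binding methanethiol oxidase, had the largest decrease of all, with 9267, 9557 and 16416 in CFC and 299, 164 and 1868 in MaSC (log2 fold change -4.12 ± 0.58, adjusted p = 0.000186). A second probe set gave -3.47 and was called too. Gpx3, the secreted glutathione peroxidase, gave 3356, 8358 and 6953 in CFC and 355, 735 and 2486 in MaSC (-2.50 ± 0.57, adjusted p = 0.03). They were the 2 calls among 19 genes of selenium, glutathione and oxidative defence, whose median was 0.05. Gpx1 (-1.25) and Sod1 (-0.98) were lower in every MaSC sample on chip A and not called. Scd1, the desaturase that makes oleate, gave 16062, 18178 and 28923 in CFC and 1884, 5926 and 8178 in MaSC (-2.13 ± 0.44, adjusted p = 0.0134), the 1 call among 16 fatty acid synthesis genes; no gene of the 12 of cholesterol synthesis was called (limma, and none at an unadjusted p under 0.05). Of 25 respiratory chain genes none was called (limma, 0 higher and 6 lower at an unadjusted p under 0.05), but 20 were negative and the median was -0.60. Cox5b gave 21136, 24186 and 23664 in CFC and 5038, 10586 and 17382 in MaSC (-1.22, adjusted p = 0.202), and MaSC1 was the low sample. Of 22 ribosomal protein genes 21 were negative with a median of -0.59 and none was called (1 higher and 6 lower at an unadjusted p under 0.05). Rpl11 gave 30005, 17744 and 24441 in CFC and 10975, 12249 and 12428 in MaSC (-0.98, adjusted p = 0.271). The median of the respiratory chain list was -0.30 without MaSC1, -0.86 without MaSC3 (1 gene called lower), -0.86 with scan day as a block, and -0.11 with the fluidics station as a block, where MaSC3 is the 1 MaSC sample on the station of CFC. That of the ribosomal list was -0.55 without MaSC1, -0.61 without MaSC3 and -0.44 with the station as a block.

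Cell cycle genes gave no call on either chip in limma, with 1 higher and 4 lower of 22 at an unadjusted p under 0.05 on chip A and 0 and 1 of 6 on chip B. Mki67, the proliferation antigen, was lower in every MaSC sample (1594, 2513 and 1222 against 119, 75 and 462, log2 fold change -2.48, adjusted p = 0.173). Ccnd2, the cyclin D2 gene, was higher in every MaSC sample (968, 1075 and 350 against 2791, 4823 and 2827, 3.99-fold, adjusted p = 0.124). On chip B, Mcm5, a subunit of the replicative helicase (-2.06, adjusted p = 0.599), and Cdca8, a mitotic protein of the chromosomal passenger complex (-1.90, adjusted p = 0.0528), were lower without a call. Of 17 immediate early genes, which tissue dissociation can induce, none was called on chip A (limma, 1 higher and 0 lower at an unadjusted p under 0.05), with a median of 0.32. Of 13 heat shock genes on chip A, Hspb8, a small heat shock protein, rose, with 1019, 1079 and 1383 in CFC and 13298, 7273 and 7023 in MaSC (2.78 ± 0.44, adjusted p = 0.000932). Cryab, another small heat shock protein, gave 5999, 2607 and 3548 against 30882, 10721 and 4117 and was not called. MaSC1 was the high sample for both, and the median of the list was 0.58 with it and 0.16 without it. It was 1.15 with 2 calls without MaSC3 and with scan day as a block, and -0.31 with no call with the fluidics station as a block, which again rests on MaSC3. Hsp90aa1 was also highest in MaSC1 in its representative chip B probe set (357, 124 and 468 against 2842, 1604 and 1223, 2.13, adjusted p = 0.977). Another chip B probe set of Hsp90aa1 gave -1.09, and brighter ones on chip A gave 0.12, 0.32 and 0.48. All of these had overlapping groups and no call.

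Markers of other cells of the gland gave few calls. On chip A none was called (limma) among 10 leukocyte, 9 endothelial, 12 fibroblast, 4 adipocyte, 3 erythroid and 7 skin keratinocyte markers tested, and 1 fibroblast marker was higher and 1 keratinocyte marker lower at an unadjusted p under 0.05. Their medians lay between -0.33 and 0.73. The summed signals overlapped between the groups: 7103 to 15491 in CFC and 8870 to 15382 in MaSC for leukocytes, and 8012 to 10924 and 7729 to 12675 for endothelium. Ptprc, the pan-leukocyte antigen, and Pecam1, an endothelial antigen, failed the filter on chip A, with highest signals of 643 and 1009. Of 6 Schwann cell markers Pmp22, a myelin protein found in many epithelia, rose (log2 fold change 2.01, adjusted p = 0.0179) and Erbb3 fell. At an unadjusted p under 0.05, 3 of the 6 were higher and 1 was lower. Mbp, another of these markers, gave -0.18 in its representative probe set and 2.87 in one that was called (adjusted p = 0.0314). Further Mbp probe sets gave -1.22 to 2.68, none called. The summed signal of the Schwann cell markers was 16919 to 19013 in CFC and 20186 to 27097 in MaSC without overlap. On chip B, the 2 keratinocyte markers tested summed to 9501 to 22486 in CFC and 1630 to 6645 in MaSC, most of it from Sbsn, the gene of suprabasin. Its brightest probe set was not called (-1.98, adjusted p = 0.112), but another on chip B was, at 20254, 16141 and 13066 in CFC and 651, 3896 and 3989 in MaSC (-2.79, adjusted p = 0.00589). The part of these sums in the results was not tested.

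Other probe sets of the called genes mostly had the same sign and often no call. On chip A, 68 of the 125 called genes had another tested probe set on that chip. Of these 121 probe sets 102 had the same sign and 35 were also called. On chip B the 31 probe sets of 26 chip A genes had the same sign in 26 cases and were called in 4. Of the 16 genes called on chip B, 13 had 19 tested probe sets on chip A, of which 15 had the same sign and 5 were called. Krt14 showed both extremes, with 0.12 in one further probe set and 5.95 (adjusted p = 2.24e-07) in another. Acta2 on chip B gave 417, 205 and 399 in CFC and 523, 171 and 98 in MaSC (log2 fold change -0.35), against 5.06 on chip A. Myh11 gave -0.18, Csn3 -0.16 and Micos13 -0.16 in their other chip A probe sets, and none of these 3 was called. Opposite signs without a call also came from chip A probe sets of Igfbp4 (-0.67), Hspb8 (-0.3) and Csn1s2a (0.27 and 0.13). They also came from chip B probe sets of Tenm2 (-0.85) and Sema6d (-0.8). Same-sign values without a call included Slc2a3 (0.51 and 1.97) on chip A, and Igfbp3 (1.26) and Smim22 (-0.15) on chip B. Igfbp4 and Hspb8 had other chip A probe sets that were called higher.

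The remaining lower genes with the largest changes belonged to no luminal list. Fcgbp, which encodes a mucin-like secreted protein, was at 11044, 3342 and 6837 in CFC and at 923, 700 and 438 in MaSC (7.98-fold lower, adjusted p = 0.003). Tspo, a protein of the outer mitochondrial membrane, was at 3755, 4536 and 4307 in CFC and at 712, 256 and 530 in MaSC (log2 fold change -2.81 ± 0.57, adjusted p = 0.0123). Cytip, which binds cytohesins, was at 10129, 4640 and 6783 in CFC and at 1421, 694 and 1217 in MaSC (-2.52 ± 0.47, adjusted p = 0.0058). All MaSC samples were below all CFC samples, as they were for Smagp (-3.01), a small membrane glycoprotein, and Micos13 (-3.18), a subunit of the complex that shapes mitochondrial cristae. On chip B, Slc15a2, a transporter of small peptides, was at 8977, 5299 and 8668 in CFC and at 607, 1013 and 184 in MaSC (-3.51 ± 0.65, adjusted p = 0.00589). Smim22, a small membrane protein, was at 20433, 14866 and 14257 in CFC and at 615, 4878 and 4559 in MaSC (-2.65 ± 0.53, adjusted p = 0.0157). The chip A lists of fibroblast growth factors and of class I antigen presentation and interferon genes held no call in limma, with 1 higher and 0 lower of 12, and 1 and 1 of 15, at an unadjusted p under 0.05.

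**Figure D4:**
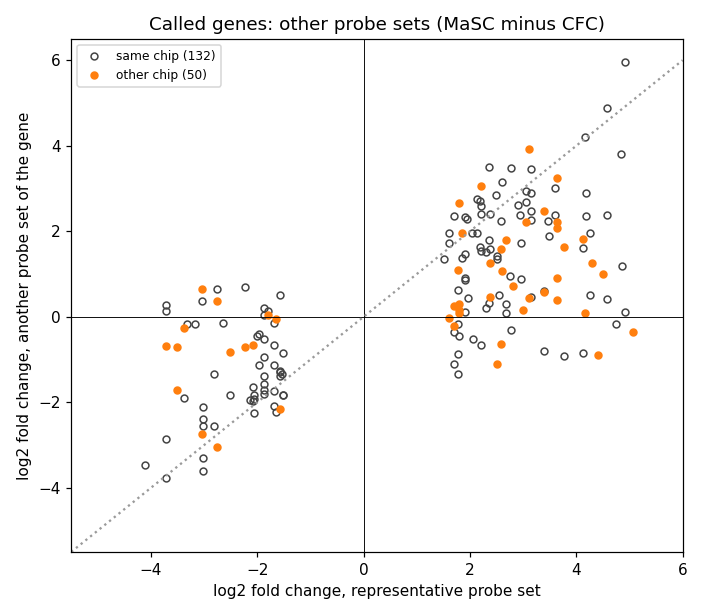
Log2 fold change (MaSC minus CFC) of the representative probe set of each called gene (horizontal) against every other tested probe set of that gene (vertical), on the same chip (open circles) or the other chip (filled circles); the dotted line marks equal values. Most points share the sign of the representative, and many lie nearer to 0.

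**Figure D5:**
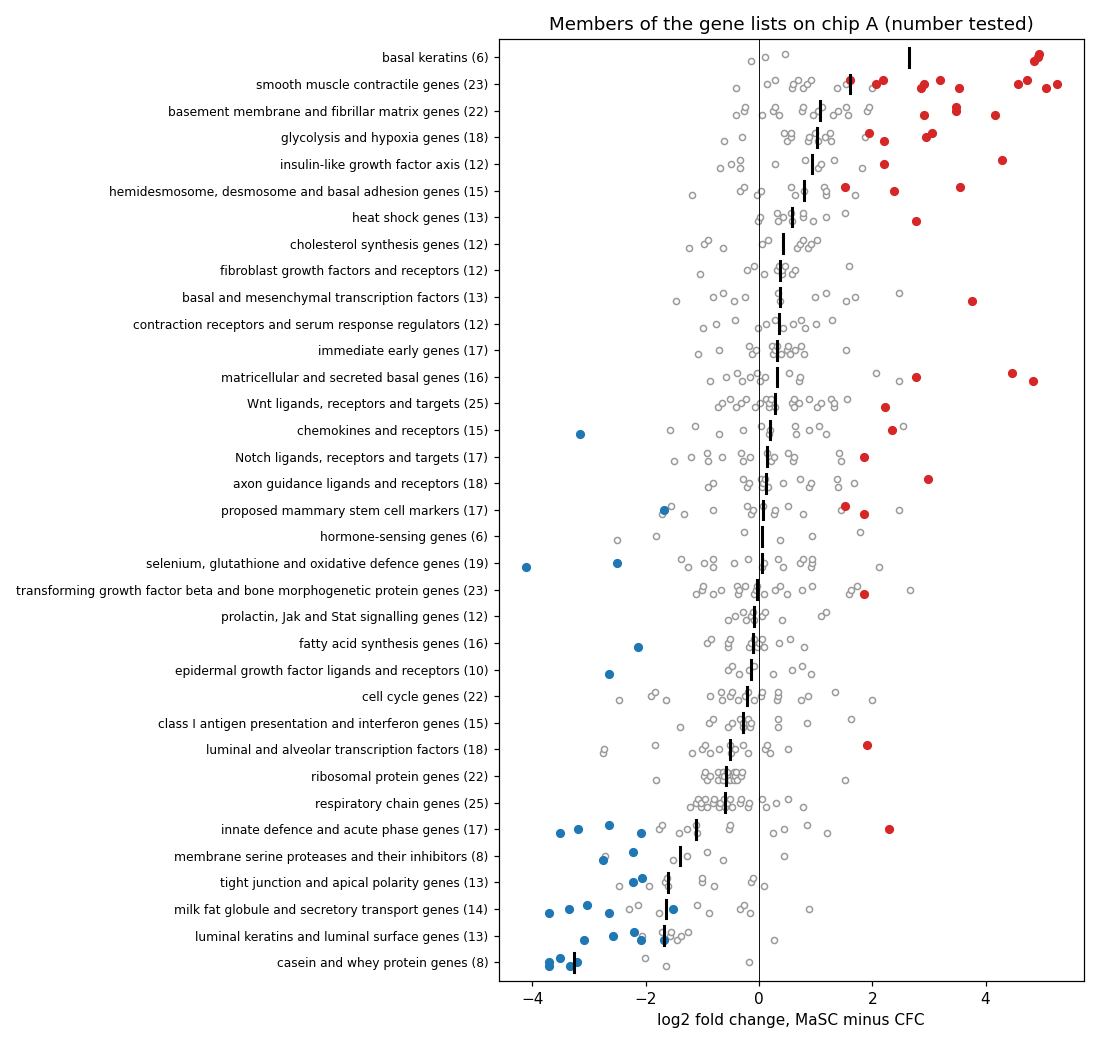
Log2 fold change (MaSC minus CFC) on chip A of every tested member of each gene list, with the number tested in brackets; filled red and blue points are called higher and lower, open points are not called and black bars are medians. Basal keratins have the highest median, 2.66, and casein and whey protein genes the lowest, -3.27.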

How the data were processed

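RNA of 3 MaSC and 3 CFC samples was measured on Affymetrix MOE430A and MOE430B arrays. The deposited values are signal intensities, which per the submitters' processing notes come from MAS5. Neither the version of MAS5 nor its scaling target is stated there. Each chip was analysed alone. After removal of 64 control probe sets a chip, probe sets were kept that reached a signal of 300 (20% of the trimmed mean, taken between the 2nd and 98th percentiles) on 3 of 6 arrays, and the 100 probe sets present on both chips were tested on chip A only. log2(signal + 150), computed here from the deposited intensities, was tested with limma 3.58.1 in R 4.3.3 (lmFit, then eBayes with a mean-variance trend, 4 residual degrees of freedom), with Benjamini-Hochberg adjustment over all probe sets of the chip; adjusted p-values in the report are from this fit unless another setting is named. The 150 understates changes of dim genes. The number of arrays limits the precision.

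A gene was represented by its probe set with 1 symbol and the highest mean log2 value. On chip A 20380 probe sets had 1 symbol, 691 several and 1555 none, and on chip B 14661, 245 and 7605. Of those with 1 symbol, 20351 and 14486 were matched to a reference symbol by Entrez ID. Calls needed an adjusted p below 0.05. The text names the 20 called genes a direction with the largest change on chip A and 10 on chip B whose groups did not overlap (where under 5 were called, the 5 with the smallest p), up to 6 called and 3 uncalled members of each list, and a few fixed markers. Further uncalled genes and other list members were named after their values were seen. The members and lists were chosen with earlier results of these data known. No label says that samples with the same replicate number were paired. Deviations of same-numbered samples correlated at -0.119, -0.024 and -0.060 on chip A and at -0.068, -0.024 and -0.016 on chip B. With so few samples these values cannot decide whether the numbers pair them. Scan day and fluidics station came from the instrument records, all 18 of which matched the labels. The alternatives tried were other pseudocounts, filters, normalization, variance models, array weights, blocks, choices of probe set and leaving out each sample.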

Additional observations from a re-analysis of the deposited data

How the results depend on the processing

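The chip A genes higher in MaSC than CFC numbered 77 and the lower ones 48, and on chip B there were 12 and 4. Leaving out 1 sample gave 37 to 135 higher and 12 to 75 lower genes on chip A, and 5 to 21 and 1 to 5 on chip B. Without the variance trend the counts were 14 and 1 on chip A and 0 and 0 on chip B (limma; 242 higher and 226 lower at an unadjusted p under 0.05). Array quality weights gave 129 and 79 on chip A. Scan day as a block gave 41 higher and 47 lower genes on chip A (394 and 535 at an unadjusted p under 0.05), and 1 higher and 15 lower on chip B. The fluidics station as a block, chosen after seeing the data, gave 29 and 11 on chip A. On chip A, 31 lower genes were called with a pseudocount at 1% of the chip mean and 28 with none. On chip B, 22 higher genes were called with one at 30%. The replicate block gave 64 and 43 on chip A and 11 and 4 on chip B, although no label says that the numbers pair the samples. The cause of these shifts was not tested.

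Of 84 called values of named genes, 69 lost their call without the trend, 37 of 69 on chip A with the station as a block, 32 with scan day as a block and 4 to 36 when 1 sample was left out. The 1 reversal among them was Tmprss2 on chip B, at 0.38 when probe sets without cross-hybridisation suffixes came first. Among uncalled genes, Krt6a was 0.03 with the station as a block and -0.72 to 0.18 over the left-out samples, with 0.13 without CFC3. Krt16 was -0.22 with array weights, -0.01 with scan day as a block and -0.50 to 0.84 over the left-out samples, with -0.48 without CFC2 and -0.01 without MaSC3. Krt15 was -0.15 with scan day as a block and -0.15 to 0.92 over the left-out samples. Acta2 on chip B was 0.49 with scan day as a block. Signals near or below 300 limit Krt15, Krt16 and the chip B probe set of Acta2.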
